A study of Mus musculus with 10 samples.

Results

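The 34 genes described here encode the enzymes that break glucose down to pyruvate and lactate, the transporters that carry glucose, lactate and pyruvate across the plasma membrane, the complex that feeds pyruvate into mitochondria and the entry to the pentose phosphate pathway. They were chosen by their place in these pathways, with earlier results of these data known. All 34 were found among the 29527 genes of the table, and all passed the filter on low values that left 17268 genes for testing. RNA was measured in bulk from the dissected intermediate lobe (IL) of the mouse pituitary in 10 mice of 2 to 3 months, which were 4 wild-type (WT), 3 p27-/- and 3 p27-/-;Sox2+/- animals. The p27-/- mice lacked both copies of Cdkn1b, which encodes the cell cycle inhibitor P27, in every cell of the body. The p27-/-;Sox2+/- mice lacked in addition 1 copy of Sox2. It encodes a transcription factor found in pituitary stem cells and, at lower levels, in the melanotrophs of the IL. Both alleles are constitutive, males and females were included, the background was mixed, and no group with loss of 1 copy of Sox2 alone was analysed here. The design asks how loss of p27 changed the IL, where such mice later develop melanotroph tumors, and whether the dose of Sox2 altered that change.

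Glycolysis splits glucose into pyruvate in a chain of cytosolic reactions, with phosphorylation by hexokinase, a committed step at phosphofructokinase and ATP gained in the second phase at phosphoglycerate kinase and pyruvate kinase. Pyruvate then either enters mitochondria through the pyruvate dehydrogenase complex or is reduced to lactate by lactate dehydrogenase, a tetramer of subunits encoded by Ldha and Ldhb. Proliferating cells and tumors often convert much of their glucose to lactate, and hypoxia-inducible factors and MYC are known activators of many of these genes. The IL consists mostly of melanotrophs, endocrine cells that make POMC and process it to melanocyte-stimulating hormone.

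The table holds log2 values of normalised counts, in which genes with few reads are pulled towards their mean over all samples, and the depth of each sample is unknown from it. Fold changes are those of this scale. Genotypes were compared with limma in 1 fit of all 10 samples, with p-values adjusted by the Benjamini-Hochberg method for all 17268 genes, and an adjusted p under 0.05 is meant wherever a gene is said to have risen or fallen. Nothing in the labels links same-numbered samples, and p-values measure the spread between the mice. Pomc had a mean log2 value of 18.55, the highest of 7 listed melanotroph markers, and Neurod1 the lowest at 4.63. Pax7, which directs the melanotroph rather than the corticotroph fate, had a mean of 11.73. Pomc and Tbx19 are shared with corticotrophs of the anterior lobe, so detection of the list alone does not tell these cell types apart. Cdkn1b fell by 0.43 in p27-/- (adjusted p = 0.047, limma) and by 0.72 in p27-/-;Sox2+/- (adjusted p = 0.00854). Its log2 values were 8.39 to 8.85 in WT, 8.04 to 8.27 in p27-/- and 7.73 to 8.10 in p27-/-;Sox2+/- samples. Much of the signal of the targeted gene thus remained in both mutants, for a reason that was not tested. Sox2 had mean values of 7.46 in WT, 7.28 in p27-/- and 7.0 in p27-/-;Sox2+/- samples, and its difference of -0.46 between p27-/-;Sox2+/- and WT did not pass the threshold (adjusted p = 0.0811). The 7 posterior lobe markers, from tissue that adjoins the IL, were all below WT in both mutants without passing the threshold, with median log2 differences of -0.72 in p27-/- and -0.75 in p27-/-;Sox2+/-. Their summed linear level ranged from 905 to 5102 in WT, from 1477 to 1726 in p27-/- and from 1071 to 4381 in p27-/-;Sox2+/- samples.

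When p27-/- samples were set against WT, 6 of the 34 genes passed the threshold, which is 17.6% against 7.78% of all tested genes. The count fell to 1 without p27-/- replicate 3, to 2 without p27-/- replicate 2 and to 3 without WT replicate 4, and rose to 9 without WT replicate 1. Of the 6 genes 5 were higher and 1 lower, where 3.16% of all tested genes were higher and 4.62% lower. Pfkp, Tpi1, Gapdh, Pgk1 and Ldha rose by between 1.34-fold and 1.67-fold, and Ldhb fell to 0.642 of its WT level. The median log2 difference of the 34 genes was 0.14, with 24 above 0, whereas the median of all tested genes was 0.009, with 51.6% above 0. In p27-/-;Sox2+/- compared with WT samples, only Pfkfb3 passed the threshold, and it fell to 0.665 of WT. That is 2.94% of the 34 genes against 2.71% of all tested genes (0.828% higher and 1.88% lower), and the median difference of the 34 was 0.05 against 0.01. Between p27-/-;Sox2+/- and p27-/- samples none of the 34 genes passed the threshold in limma, against 0.145% of all tested genes (0.0811% higher and 0.0637% lower), while 10 had an unadjusted p under 0.05, as had 6.65% of all tested genes. With array weights 3 of the 34, Ldha, Pfkfb3 and Tpi1, passed as lower, and 283 of all 17268 genes passed. In this comparison 24 of the 34 differences were below 0, with a median of -0.11, while 48.6% of all tested genes were above 0, with a median of -0.004. The comparisons share samples, and a gene that passed against WT in 1 mutant only is not thereby shown to differ between the mutants.

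**Figure D1:**
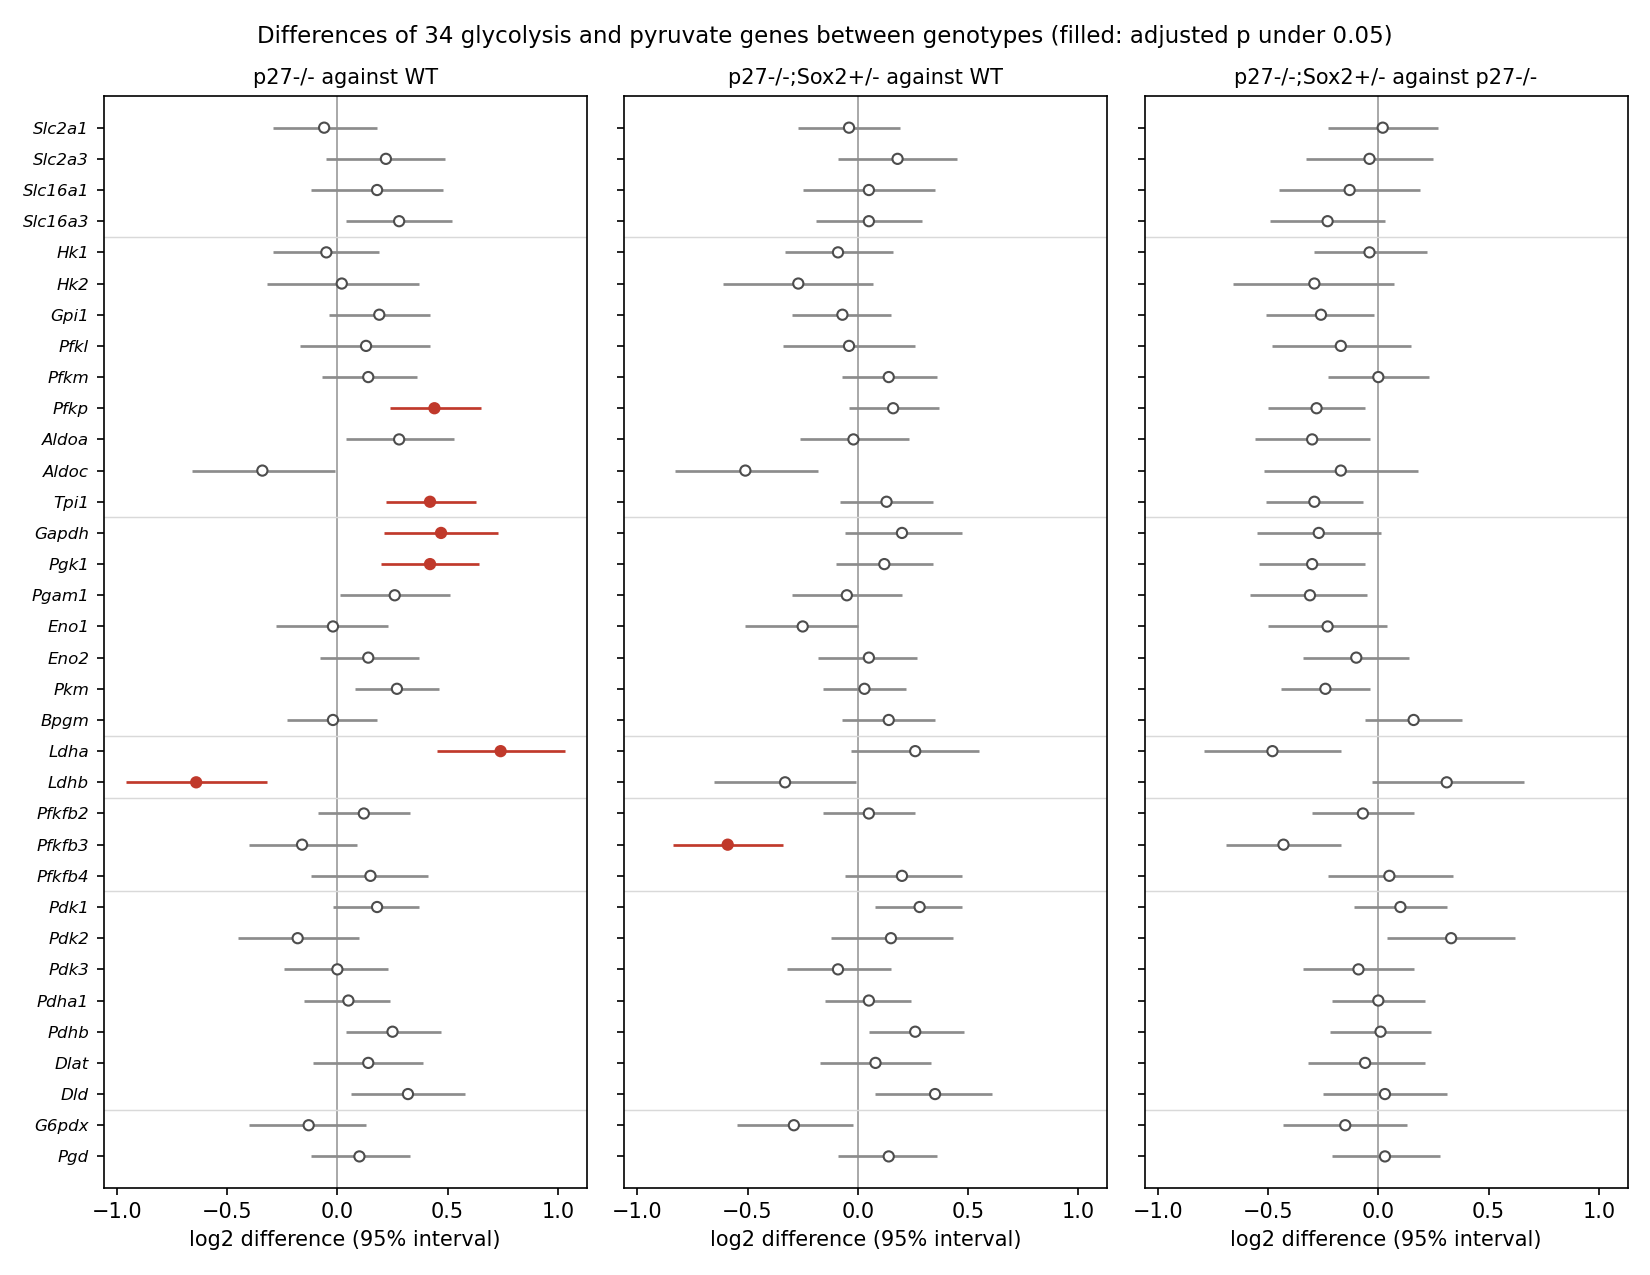
Log2 difference (horizontal axis) of each of the 34 genes (vertical axis, ordered by step of the pathway) in the 3 comparisons of genotypes. Points are estimates of the limma fit, lines are 95% intervals, and filled red points have an adjusted p under 0.05, which are 6 genes in p27-/- against WT, 1 in p27-/-;Sox2+/- against WT and none between the mutants.

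The lactate dehydrogenase pair held the 2 differences of largest size among the 34 genes in p27-/- samples, and they had opposite signs. Ldha encodes the M subunit, which predominates in muscle and in many tumors. Its log2 value (ENSMUSG00000063229, chromosome 7 of GRCm38 from 46842274 to 46855627) was 10.49, 10.21, 9.85 and 10.11 in WT replicates 1 to 4. It was 10.99, 10.67 and 11.06 in p27-/- replicates 1 to 3, and 10.37, 10.37 and 10.54 in p27-/-;Sox2+/- replicates 1 to 3. Every p27-/- sample lay above every sample of the other genotypes, whereas p27-/-;Sox2+/- samples overlapped WT. Ldha rose by 0.74 in p27-/- (standard error 0.13, adjusted p = 0.00607, limma), which is 1.67-fold. The difference of 0.26 in p27-/-;Sox2+/- (adjusted p = 0.331) and that of -0.48 between the mutants (95% interval -0.79 to -0.17, adjusted p = 0.353) did not pass the threshold.

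Ldhb encodes the H subunit, which predominates in heart. Its log2 value (ENSMUSG00000030246, chromosome 6 from 142490249 to 142507957) was 8.44, 8.15, 8.28 and 8.21 in WT, 7.69, 7.74 and 7.47 in p27-/-, and 7.63, 7.84 and 8.36 in p27-/-;Sox2+/- samples. All p27-/- samples were below all WT samples, while in p27-/-;Sox2+/- replicates 1 and 2 were low and replicate 3 lay within the WT range. The median of the posterior lobe markers relative to their WT means was -1.17, -1.18 and 0.38 in these 3 replicates. In WT replicate 2, with Ldhb at 8.15, that median was -1.12. Whether posterior lobe content set the position of the p27-/-;Sox2+/- samples was not tested. Ldhb fell by 0.64 in p27-/- (standard error 0.15, adjusted p = 0.0224, limma), a call lost without p27-/- replicate 1 (adjusted p = 0.058) or 3 (0.11). The difference of -0.33 in p27-/-;Sox2+/- (adjusted p = 0.271) and of 0.31 between the mutants (adjusted p = 0.826) did not pass the threshold.

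The log2 ratio of Ldha to Ldhb within a sample does not depend on how samples were scaled to each other. It was 2.05, 2.06, 1.56 and 1.90 in WT, 3.30, 2.94 and 3.59 in p27-/-, and 2.74, 2.52 and 2.18 in p27-/-;Sox2+/- samples. The 3 genotypes did not overlap, with WT lowest, p27-/-;Sox2+/- between and p27-/- highest. Because every p27-/- sample was above WT for Ldha and below WT for Ldhb, their ratio had to lie apart from WT. That separation and its p are therefore no further result beside those of the single genes. Of the p27-/-;Sox2+/- samples, replicate 3, where posterior lobe markers were highest, was nearest to WT. The mean ± SD was 1.89 ± 0.23 over the 4 WT, 3.28 ± 0.33 over the 3 p27-/- and 2.48 ± 0.28 over the 3 p27-/-;Sox2+/- samples, so that the ratio was 2.61 times the WT ratio in p27-/- and 1.5 times in p27-/-;Sox2+/-. In two-sided exact permutation tests p was 0.0571 for either mutant against WT and 0.1 between the mutants, which are the smallest values that 3 against 4 and 3 against 3 samples can give. Adjusted over the 21 comparisons of 7 such pairs, p was 0.299 in each case. In p27-/- against WT 2 further pairs did not overlap, at the same p of 0.0571 in the exact permutation test (adjusted p = 0.299). They were Pfkp minus Pfkm, with a difference of 0.30, which was also apart between the mutants at -0.28, and Aldoa minus Aldoc, with a difference of 0.62.

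**Figure D2:**
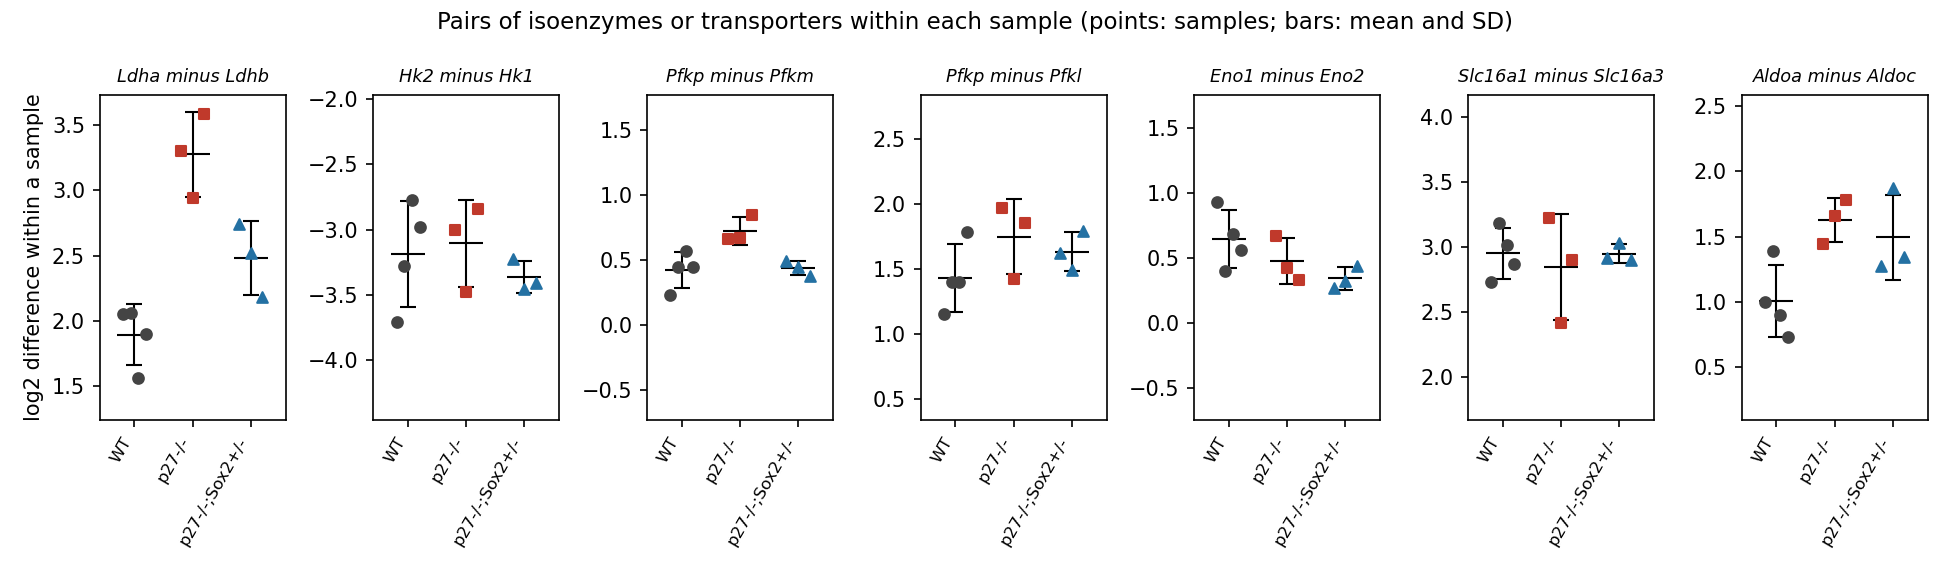
Log2 difference within a sample (vertical axis) between members of 7 pairs of isoenzymes or transporters, by genotype. Points are samples and bars the mean and SD, with 4 WT, 3 p27-/- and 3 p27-/-;Sox2+/- samples. The 3 genotypes were apart for Ldha minus Ldhb, from 1.56 to 2.06 in WT, 2.18 to 2.74 in p27-/-;Sox2+/- and 2.94 to 3.59 in p27-/-. Pfkp minus Pfkm and Aldoa minus Aldoc were apart between p27-/- and WT, and the other 4 pairs overlapped between p27-/- and WT.

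Promoter sequences of the gene pair are shown because the 2 genes moved in opposite directions in p27-/-, a choice made with their values known. The windows are the 250 bases before the annotated transcription start, 5′ to 3′ on the strand of the gene, from RefSeq on GRCm38.p6. Capitals mark ACGTG on either strand (CACGT is its reverse complement). The core of hypoxia response elements reads ACGTG or GCGTG, and only ACGTG was searched for and marked. ACGTG also lies within CACGTG, the E-box that MYC and related factors can bind. Pgk1, another gene that rose, is given beside them.
Ldha, chr7:46845554-46845803, plus strand: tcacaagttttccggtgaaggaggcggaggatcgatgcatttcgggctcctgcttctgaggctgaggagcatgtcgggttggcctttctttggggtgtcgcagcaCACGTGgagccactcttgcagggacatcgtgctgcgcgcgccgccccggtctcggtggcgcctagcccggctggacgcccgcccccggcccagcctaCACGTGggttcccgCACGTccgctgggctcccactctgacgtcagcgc
Ldhb, chr6:142507958-142508207, minus strand: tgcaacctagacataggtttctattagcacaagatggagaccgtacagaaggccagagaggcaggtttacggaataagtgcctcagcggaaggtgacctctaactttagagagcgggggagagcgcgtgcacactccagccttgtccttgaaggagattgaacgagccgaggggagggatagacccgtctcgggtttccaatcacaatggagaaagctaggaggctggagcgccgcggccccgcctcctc
Pgk1, chrX:106186850-106187099, plus strand: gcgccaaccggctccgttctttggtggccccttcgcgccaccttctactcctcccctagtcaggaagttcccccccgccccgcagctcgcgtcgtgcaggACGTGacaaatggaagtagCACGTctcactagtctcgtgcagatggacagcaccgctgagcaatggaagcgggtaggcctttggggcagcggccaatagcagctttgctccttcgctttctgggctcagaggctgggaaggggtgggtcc
The Ldha window held 5 matches to ACGTG or its reverse complement CACGT in 3 places. Of these places 2 read CACGTG, which matches on both strands and so was counted once for each. The Pgk1 window held 2 matches, and the Ldhb window held none. A second annotated start of Ldha had no such match in its window, nor had the window of Pfkp. The uncounted form GCGTG does occur, on either strand, in the windows of Ldhb, of Pfkp and of the second Ldha start. The Ldhb window is thus not shown to lack the core of hypoxia response elements. Of the 34 genes 33 had at least 1 such window, and 15 of these (45.5%) held ACGTG, against 18.5% of all 27025 gene symbols with a window. For CACGTG the shares were 18.2% and 6.86%. Of the 5 genes that rose in p27-/-, Ldha and Pgk1 held ACGTG and Pfkp, Tpi1 and Gapdh did not. Pfkfb3, which fell in p27-/-;Sox2+/-, held both ACGTG and CACGTG. A match describes these letters only, and binding was not measured.

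The first phase of glycolysis, from glucose to triose phosphates, was represented by 9 genes, of which Pfkp and Tpi1 rose in p27-/- samples and the other 7 did not pass the threshold. Hexokinases phosphorylate glucose and so hold it in the cell. Hk1, the widely expressed form, had log2 values of 9.17, 8.80, 8.82 and 8.82 in WT, 8.72, 9.03 and 8.80 in p27-/-, and 8.84, 8.72 and 8.89 in p27-/-;Sox2+/- samples. Hk2, the form induced in muscle and in many tumors, had values of 5.47, 5.52, 6.05 and 5.84 in WT, 5.72, 5.55 and 5.96 in p27-/-, and 5.61, 5.26 and 5.48 in p27-/-;Sox2+/- samples. The genotypes overlapped for both hexokinases. The differences in p27-/- were -0.05 for Hk1 (95% interval -0.29 to 0.19, adjusted p = 0.827, limma) and 0.02 for Hk2 (-0.32 to 0.37, adjusted p = 0.946). Per kilobase of the longest transcript the mean WT log2 level was 6.81 for Hk1 and 3.26 for Hk2, the last but 1 of the 34 genes.

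Phosphofructokinase catalyses the committed step, and its platelet form Pfkp (ENSMUSG00000021196, chromosome 13 from 6579874 to 6649060) had log2 values of 9.26, 9.43, 9.31 and 9.62 in WT. The values were 9.76, 9.84 and 9.95 in p27-/- and 9.54, 9.59 and 9.56 in p27-/-;Sox2+/- samples. The p27-/- samples were above all others, and the p27-/-;Sox2+/- samples lay in the upper part of the WT range. Pfkp rose by 0.44 in p27-/- (standard error 0.10, adjusted p = 0.0155, limma), and its difference of 0.16 in p27-/-;Sox2+/- did not pass the threshold (adjusted p = 0.403). The call in p27-/- was lost without p27-/- replicate 2 (adjusted p = 0.0537) or 3 (0.0893). The muscle form Pfkm and the liver form Pfkl had differences of 0.14 and 0.13 in p27-/- that did not pass. In WT the levels per kilobase of Pfkm (7.22 to 7.65) and Pfkp (7.21 to 7.57) overlapped, and that of Pfkl was lower (5.94 to 6.21).

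Triose phosphate isomerase interconverts the 2 triose phosphates that aldolase makes. Its gene Tpi1 (ENSMUSG00000023456, chromosome 6 from 124810586 to 124814158) had log2 values of 9.37, 9.23, 9.43 and 9.07 in WT, 9.64, 9.71 and 9.74 in p27-/-, and 9.36, 9.34 and 9.51 in p27-/-;Sox2+/- samples. Again the p27-/- samples were above all others, and Tpi1 rose by 0.42 (standard error 0.10, adjusted p = 0.0197, limma), a call lost without p27-/- replicate 2 (adjusted p = 0.0704) or 3 (0.0897) or WT replicate 4 (0.0511). Of the aldolases, the muscle form Aldoa had a difference of 0.28 in p27-/- (adjusted p = 0.146) and the brain form Aldoc one of -0.34 (adjusted p = 0.195), and Aldoc was at -0.51 in p27-/-;Sox2+/- (adjusted p = 0.0975). None of these passed the threshold. Gpi1, glucose-6-phosphate isomerase, was at 0.19 in p27-/- and -0.07 in p27-/-;Sox2+/-.

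In the second phase, from triose phosphate to pyruvate, Gapdh and Pgk1 rose in p27-/- among 7 genes. Glyceraldehyde-3-phosphate dehydrogenase is often used as a reference gene, and Gapdh (ENSMUSG00000057666, chromosome 6 from 125161852 to 125166467) had log2 values of 10.88, 10.36, 10.26 and 10.35 in WT. It had 10.99, 10.94 and 10.87 in p27-/- and 10.63, 10.70 and 10.67 in p27-/-;Sox2+/- samples. WT replicate 1 stood apart from the other 3 WT samples and reached the p27-/- range, so that the groups overlapped. Gapdh rose by 0.47 in p27-/- (standard error 0.12, adjusted p = 0.0353, limma), or by 0.61 without WT replicate 1 (adjusted p = 0.000813). The call was lost when any of the other 6 WT or p27-/- samples was left out (adjusted p between 0.0578 and 0.119), and without p27-/-;Sox2+/- replicate 2 (0.0537).

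Phosphoglycerate kinase makes the first ATP of the second phase. Pgk1 (ENSMUSG00000062070, X chromosome from 106187100 to 106203699) had log2 values of 9.90, 10, 9.72 and 9.86 in WT, 10.20, 10.28 and 10.41 in p27-/-, and 9.77, 10.12 and 10.09 in p27-/-;Sox2+/- samples. All p27-/- samples were above the rest, and Pgk1 rose by 0.42 (standard error 0.10, adjusted p = 0.027, limma). This call was lost without p27-/- replicate 2 (adjusted p = 0.0773) or 3 (0.128) or WT replicate 3 (0.0627) or 4 (0.0609). With Xist as a covariate for sex, all 6 genes, the X-linked Pgk1 among them, still passed. Pkm, pyruvate kinase of muscle and most other tissues, was at 10.95, 10.69, 10.73 and 10.68 in WT and 10.99, 11.07 and 11.04 in p27-/- samples. These groups did not overlap either, but its difference of 0.27 missed the threshold (adjusted p = 0.0748). Pgam1, phosphoglycerate mutase, was at 0.26 (adjusted p = 0.183), and the enolases Eno1 and Eno2 at -0.02 and 0.14. Bpgm, which makes the 2,3-bisphosphoglycerate of red blood cells, was at -0.02.

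**Figure D3:**
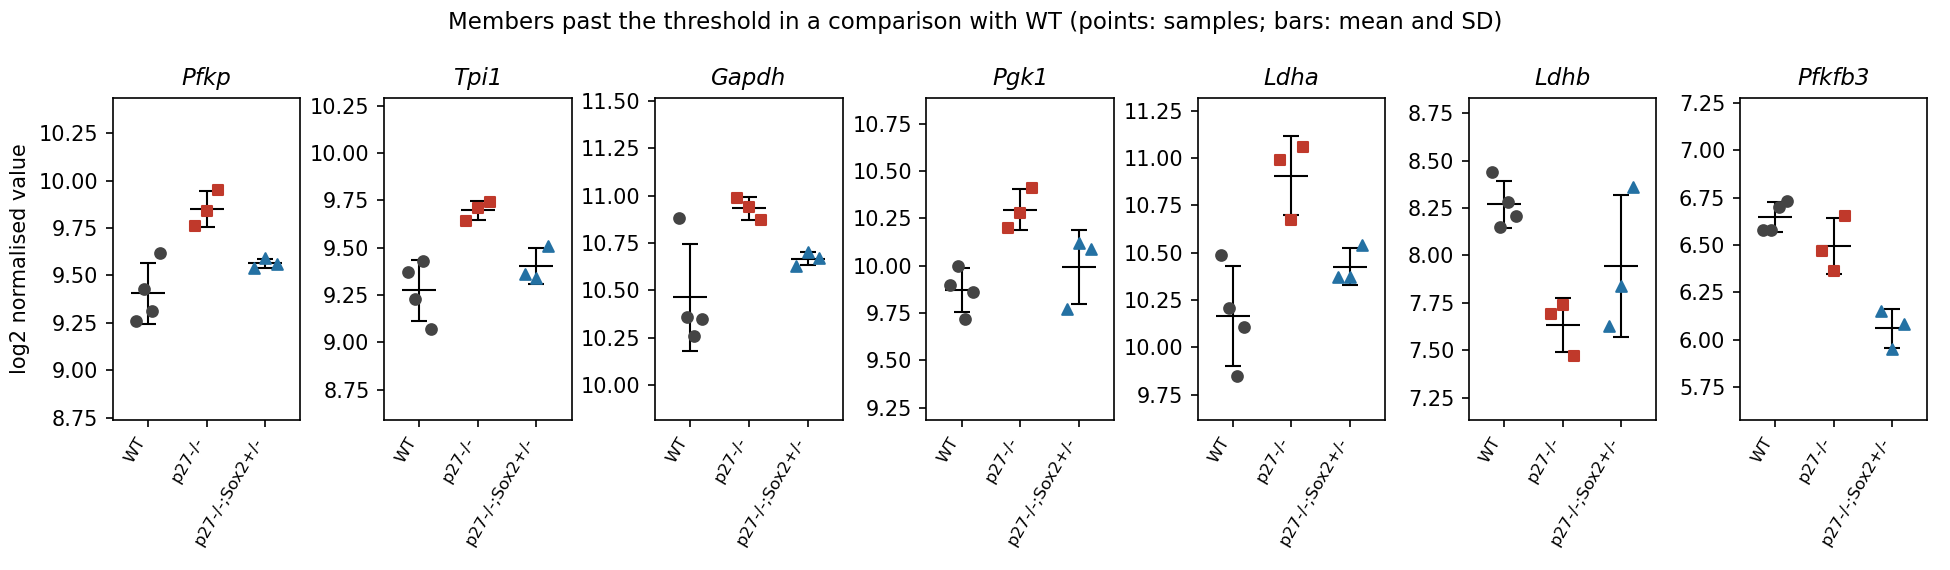
Log2 normalised value (vertical axis, each panel spanning the same range of log2 units) of the 7 genes that passed the threshold in a comparison with WT, by genotype. Points are samples and bars the mean and SD. The p27-/- samples are apart from WT for Pfkp, Tpi1, Pgk1, Ldha and Ldhb, WT replicate 1 at 10.88 reaches the p27-/- samples of Gapdh, and the p27-/-;Sox2+/- samples of Pfkfb3, from 5.95 to 6.15, are below all others.

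Across the 34 genes, p27-/- and WT samples did not overlap for 8 (7 higher and 1 lower), which is 23.5% against 20.6% of all tested genes (10.2% higher and 10.3% lower). With both directions together the share was close to the background. Between the mutants the samples did not overlap for 10 genes, 9 of them lower in p27-/-;Sox2+/- and 1 higher, which is 29.4% against 15.3% of all tested genes (7.75% lower and 7.51% higher). The 9 were Pfkp, Aldoa, Tpi1, Gapdh, Pgk1, Pkm, Ldha, Pfkfb3 and Pdk3, and the other was Pdk2. In p27-/-;Sox2+/- against WT this held for 3 genes, Pdk1, Dld and Pfkfb3, which is 8.82% against 15.0% of all tested genes (7.02% higher and 8.01% lower). Of 9 genes of the first phase 8 had a difference below 0 between the mutants, with a median of -0.26, and of 7 genes of the second phase 6, with a median of -0.24. Of all tested genes 48.6% were above 0 between the mutants.

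**Figure D4:**
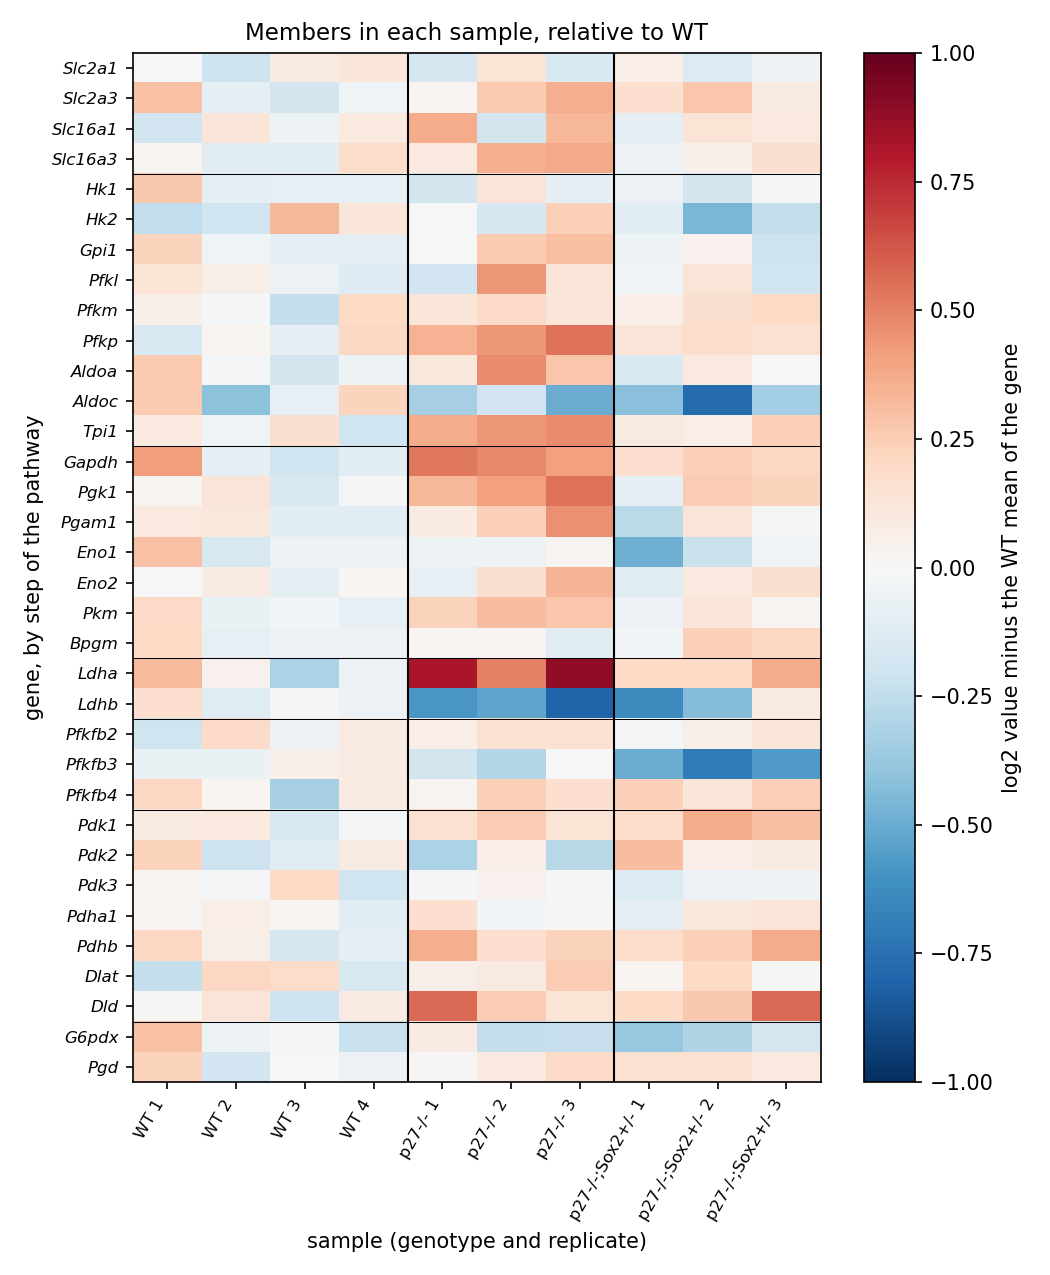
Log2 value minus the WT mean of the gene (colour scale, red above and blue below WT, from -1 to 1) for the 34 genes (rows, by step of the pathway) in the 10 samples (columns, by genotype and replicate). Ldha and Ldhb have the strongest colours in the p27-/- columns, of opposite sign, and Pfkfb3 is below WT in the 3 p27-/-;Sox2+/- columns.

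Fructose 2,6-bisphosphate is an allosteric activator of phosphofructokinase, made and removed by the bifunctional PFKFB enzymes. Pfkfb3 encodes the form with the strongest kinase bias (ENSMUSG00000026773, chromosome 2 from 11471430 to 11554071). Its log2 value was 6.58, 6.58, 6.70 and 6.73 in WT, 6.47, 6.36 and 6.65 in p27-/-, and 6.15, 5.95 and 6.08 in p27-/-;Sox2+/- samples. The p27-/-;Sox2+/- samples were below all others, and p27-/- overlapped WT. Pfkfb3 fell by 0.59 in p27-/-;Sox2+/- (standard error 0.11, adjusted p = 0.0171, limma), while its differences of -0.16 in p27-/- (adjusted p = 0.428) and -0.43 between the mutants (95% interval -0.69 to -0.17, adjusted p = 0.312) did not pass. Its call was lost without p27-/-;Sox2+/- replicate 2 (adjusted p = 0.107) or WT replicate 4 (0.0502). Pfkfb2 and Pfkfb4 had differences between 0.05 and 0.20 in both mutants that did not pass the threshold.

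At the plasma membrane none of 4 transporter genes passed the threshold in a comparison with WT, and only Slc16a3 in p27-/- had an unadjusted p under 0.05. Slc2a1, which encodes the glucose transporter GLUT1, had log2 values of 9.08, 8.87, 9.17 and 9.20 in WT, 8.91, 9.22 and 8.93 in p27-/-, and 9.15, 8.94 and 9.03 in p27-/-;Sox2+/- samples. The genotypes overlapped, and the 95% interval of the difference was -0.29 to 0.18 in p27-/- and -0.27 to 0.19 in p27-/-;Sox2+/-. Slc2a3, which encodes GLUT3, was at 0.22 and 0.18. The monocarboxylate transporter genes Slc16a1 (MCT1) and Slc16a3 (MCT4, known for lactate export) were at 0.18 and 0.28 in p27-/-, with an adjusted p of 0.148 for the latter. Slc16a3 had the lowest level per kilobase of the 34 genes in WT, with a mean log2 value of 2.44, against 5.36 for Slc16a1.

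Pyruvate dehydrogenase turns pyruvate to acetyl-CoA, and its kinases, encoded by the Pdk genes, phosphorylate and inhibit it. None of these 7 genes passed the threshold in limma, while 2 in p27-/- and 3 in p27-/-;Sox2+/- had an unadjusted p under 0.05 against WT, where 24.1% and 17.8% of all tested genes had, and Pdk1 passed in p27-/-;Sox2+/- with array weights (adjusted p = 0.0378). Pdha1, the X-linked E1 alpha subunit, had log2 values of 9.26, 9.31, 9.26 and 9.13 in WT, 9.41, 9.21 and 9.25 in p27-/-, and 9.15, 9.35 and 9.37 in p27-/-;Sox2+/- samples, with overlap between all genotypes and a difference of 0.05 in each mutant (95% interval -0.15 to 0.24). Pdk1 had values of 8.93, 8.95, 8.69 and 8.84 in WT, 9.0, 9.10 and 8.99 in p27-/-, and 9.03, 9.22 and 9.15 in p27-/-;Sox2+/- samples. All mutant samples were above WT, yet the differences of 0.18 (adjusted p = 0.257) and 0.28 (adjusted p = 0.124) did not pass. Likewise Dld, the E3 subunit that this complex shares with other dehydrogenases, lay above WT in all mutant samples, with 9.98 to 10.32 in WT, 10.33 to 10.76 in p27-/- and 10.39 to 10.76 in p27-/-;Sox2+/-, and with differences of 0.32 (adjusted p = 0.129) and 0.35 (adjusted p = 0.153). Pdhb, the E1 beta subunit, was at 0.25 and 0.26, and Dlat, the E2 subunit, at 0.14 and 0.08. Pdk2 was at -0.18 in p27-/- and 0.15 in p27-/-;Sox2+/-, and Pdk3 at -0.09 in the latter. In WT the level per kilobase was higher for Pdk2 (7.38 to 7.82) than for Pdk1 (6.32 to 6.58), and that of Pdk3 (6.0 to 6.39) overlapped Pdk1.

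G6pdx and Pgd encode the dehydrogenases of the oxidative pentose phosphate pathway, which yields NADPH and ribose phosphate. G6pdx was at -0.13 in p27-/- and -0.29 in p27-/-;Sox2+/- (adjusted p = 0.234), and Pgd at 0.10 and 0.14, and neither passed the threshold.

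In WT the highest levels per kilobase among the 34 genes were those of Pgam1 (10.48 to 10.70) and Aldoa (10.35 to 10.79), which overlapped, followed by Gapdh (9.76 to 10.38) and Pkm (9.53 to 9.80). Ldha came next (9.03 to 9.67) and was above Ldhb (7.77 to 8.06). Eno1 (9.01 to 9.46) was above the neuronal enolase Eno2 (7.96 to 8.15), and Aldoa above Aldoc (8.27 to 8.94). Named pseudogenes exist for Tpi1 (7), Gapdh, Ldha and Pgk1 (3 each), Pgam1 and Aldoa (2 each) and Ldhb (1), and the counting could share reads between a gene and such copies, so that their levels are uncertain to that extent.

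Of the 34 genes, 7 lie on chromosome 6, which also carries the deleted Cdkn1b (134920401 to 134925525), and these include 3 of the 6 that passed in p27-/-. Ldhb lies 7.56 Mb from Cdkn1b, Gapdh 9.75 Mb and Tpi1 10.11 Mb. Eno2 at 10.15 Mb and Slc2a3 at 12.12 Mb did not pass, nor did Hk2 and Bpgm, which are farther away. Among all 209 tested genes within 20 Mb of Cdkn1b 7.66% passed in p27-/-, against 7.67% on other chromosomes. Within 10 Mb 10.5% of 95 genes did, and on the rest of chromosome 6, beyond 20 Mb, 11.1% of 442. An effect of the region that the mutants inherited with the deletion cannot be told apart from that of p27 for single genes.

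Other genes of these pathways, and further transporters, were tested beside the 34. A list of 36 tested genes held other glycolysis, gluconeogenesis and pyruvate genes and further transporters of the Slc2a and Slc16a families, not all of which carry glucose. Of these 1 rose and 3 fell in p27-/-, which is 11.1% against 7.78% of all tested genes, with a median difference of 0.05. Slc2a13, a myo-inositol transporter, rose by 0.35 (adjusted p = 0.0376, limma). Fbp2, a fructose bisphosphatase that runs the phosphofructokinase step backwards, fell by 0.44 (adjusted p = 0.0193). Of the transporter genes, Slc2a10 fell by 0.55 (adjusted p = 0.0168) and Slc2a2, which encodes GLUT2, by 0.47 (adjusted p = 0.0393). In p27-/-;Sox2+/- Fbp2 fell by 0.52 (adjusted p = 0.0154) and Slc2a10 by 0.57 (adjusted p = 0.0235), and none rose, which is 5.56% against 2.71%. All 3 are weakly expressed, with WT means between 4.62 and 4.98.

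Of 18 genes of the TCA cycle, which oxidises acetyl-CoA, Idh3a, a subunit of isocitrate dehydrogenase, rose by 0.46 (adjusted p = 0.0415, limma) and Sucla2, a subunit of succinyl-CoA ligase, by 0.43 (adjusted p = 0.0456) in p27-/-. None fell, the share called was 11.1% against 7.78% of all tested genes (3.16% higher), the median was 0.11, and none of the 18 passed in p27-/-;Sox2+/-, where 1 had an unadjusted p under 0.05. None of 9 other pentose phosphate genes passed in any comparison or had an unadjusted p under 0.05. Among 14 regulators 1 passed in p27-/-, which is 7.14% against 7.78% of all tested genes. This was Epas1, which encodes HIF-2 alpha and fell by 0.55 (adjusted p = 0.0412, limma). Hif1a and Myc had differences of 0.13 (adjusted p = 0.463) and 0.50 (adjusted p = 0.14). Of the 14 regulators, 9 had a difference above 0 and 5 below. An unadjusted p under 0.05 was found for 7 of them, and for 24.1% of all tested genes. For 4 the p27-/- samples were apart from WT, all lower, which is 28.6% against 20.6% of all tested genes (10.3% lower). Besides Epas1 these were Txnip (mean 11.05 in WT and 10.81 in p27-/-), Mlxip (9.02 and 8.75) and Egln2 (8.78 and 8.46).

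Markers of cycling cells and of other cell types moved beside these genes. All 7 tested cell cycle markers rose in p27-/-, with a median difference of 0.88, and 2 of 7, Mki67 and Top2a, in p27-/-;Sox2+/-, where the median was 0.35. Of 7 melanotroph markers, 6 had a difference above 0 in p27-/- and 1 below, with a median of 0.06. Among them Pcsk2, which encodes a prohormone convertase, rose by 0.53 in p27-/- (adjusted p = 0.0352, limma). Pcsk1, which encodes another, fell by 0.45 in p27-/- (adjusted p = 0.0206) and by 0.42 in p27-/-;Sox2+/- (adjusted p = 0.0498). In p27-/- all 6 endothelial, all 6 macrophage, 6 of 7 fibroblast and mural and all 5 tested stem cell markers had differences below 0. Of all tested genes 51.6% were above 0 in that comparison, and markers of 1 cell type are not independent of each other. Of these Kdr, an endothelial gene, fell in both mutants and Pdgfra, a fibroblast gene, in p27-/-, and no stem cell, macrophage or erythroid marker passed. Of 7 markers of anterior lobe endocrine cells Fshb fell in both mutants. Their summed linear level ranged from 14931 to 222704 in WT, from 7002 to 96270 in p27-/- and from 10863 to 28963 in p27-/-;Sox2+/- samples, and WT replicate 2 had the highest values of Prl (17.54) and Gh (14.35). Without that sample 6 of the 34 genes passed in p27-/-, with Aldoc in place of Gapdh, and 2 in p27-/-;Sox2+/-, Aldoc and Pfkfb3. The summed linear level of the fibroblast list was 3345 to 4762 in WT and 2063 to 3760 in p27-/- samples, and that of the cell cycle list 318 to 569 and 1108 to 1729. With the posterior lobe markers as a covariate, Ldha and Tpi1 kept their calls in p27-/- (adjusted p = 0.0225 and 0.0453, limma), and Ldhb, Pfkp, Gapdh and Pgk1 lost theirs, as did Pfkfb3 in p27-/-;Sox2+/- (adjusted p = 0.0846). The differences themselves were then 0.45 for Pfkp, 0.48 for Gapdh, 0.41 for Pgk1 and -0.49 for Ldhb in p27-/-, and -0.54 for Pfkfb3 in p27-/-;Sox2+/-. Aldoc, which had not passed, was then at -0.16 in place of -0.34 in p27-/-, and at -0.32 in place of -0.51 in p27-/-;Sox2+/-. Aldoa was at 0.29 in place of 0.28 in p27-/-. With this covariate the calls over all tested genes in p27-/- were 434 in place of 1343. The part of the other markers in these results was not tested. In bulk RNA, more cells that express a gene and more RNA of that gene per cell cannot be told apart.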

How the data were processed

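RNA from the dissected IL was amplified as cDNA and sequenced on a HiSeq4000, with 1 library per mouse. Per the labels and the study's methods, the authors aligned reads with STAR 2.5.2a, estimated counts per gene with RSEM 1.3.30 on Ensembl mouse transcripts of GRCm38 without regard to strand, and normalised them with DESeq2 1.18.1. The deposited values are log2, from -1.89 to 21.5, by a transformation not named in the sources used here. They are shrunken at low levels: genes with a mean between 2 and 3 had a median SD within a genotype of 0.0851, against 0.607 from read sampling alone. No counts were used, the depth is unknown, and precision rests on the number of mice. Groups are the labelled genotypes.

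Genes whose mean reached 3.32 in log2 units (10 in linear units) were tested in 1 fit of all samples in limma 3.58.1 (R 4.3.3), by lmFit, contrasts and eBayes with trend. Pairs were compared with exact permutation tests (scipy 1.17.1, Python 3.11.15, numpy 2.4.6, pandas 2.3.3), and figures drawn with matplotlib 3.10.9. The fit was tested on simulated data. Gene positions and promoters are from RefSeq on GRCm38.p6, matched by symbol, and transcript lengths for levels per kilobase from GENCODE, the longest coding transcript of each gene. Pathway members, other lists, markers, tests and alternatives were chosen with earlier results of these data known. By rule, every member is named, and values of each sample are given for members past the threshold and for Hk1, Hk2, Pfkp, Ldha, Slc2a1, Pdk1 and Pdha1 whatever their p, and of other lists genes past the threshold are named, at most 4 per list and comparison. Pkm and Dld values, and regulators that did not pass, were added after their values were seen. Alternatives were no filter, a mean of at least 50, array weights, no trend, only the genotypes compared, quantile normalization, median centring, a block for the replicate number, a covariate for Xist or for posterior lobe markers, and each sample left out.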

Additional observations from a re-analysis of the deposited data

Results flagged for a closer look

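In the 4 WT samples, 41 measures (the 34 genes and 7 pairs) were screened for a sample far from the rest, and 4 were marked, where chance gives about 2.1 (1 in 20). In each it was WT replicate 1 that was highest, and the value is the gap to its nearest neighbour divided by the whole range. Hk1 had a ratio of 0.938, at 9.17 against 8.80 to 8.82 in the other WT samples. Bpgm had a ratio of 0.917, at 10.33 against 10.05 to 10.07. Gapdh had a ratio of 0.844, at 10.88 against 10.26 to 10.36, and Gpi1 one of 0.831, at 10.56 against 10.24 to 10.30. Without WT replicate 1, 9 of the 34 genes passed the threshold in p27-/- in place of 6, with Aldoa, Pkm and Pdhb added, and 2 in p27-/-;Sox2+/-, Gapdh and Pfkfb3.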

How the results depend on the processing

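With an alternative setting the count of the 34 genes past the threshold in p27-/- moved from 6 to 2 with the posterior lobe covariate (Ldha and Tpi1). It ranged from 1 to 9 with a sample left out, with 1 without p27-/- replicate 3, 2 without p27-/- replicate 2, 3 without WT replicate 4 and 9 without WT replicate 1. In p27-/-;Sox2+/- the count of 1 became 3 with array weights, 0 with the posterior lobe covariate and 0 to 2 with a sample left out: 0 without p27-/-;Sox2+/- replicate 2 or WT replicate 4, and 2 without WT replicate 1 or 2. Between the mutants it became 3 with array weights and was 0 in every fit with a sample left out. The cause of these changes was not tested. The medians of the 34 genes moved by less than the spread between replicates in all 20 alternatives, from 0.115 to 0.183 in p27-/-, 0.021 to 0.108 in p27-/-;Sox2+/- and -0.13 to -0.056 between the mutants. Ldha passed in p27-/- in all 20, with adjusted p between 0.00124 and 0.0434. Gapdh passed in 8 of 20, Pgk1 in 13, Ldhb and Tpi1 in 16 and Pfkp in 17, and Pfkfb3 in p27-/-;Sox2+/- in 16.

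With the replicate block 2 of the 34 genes passed in p27-/- (Ldha and Pfkp), 0 in p27-/-;Sox2+/- and 0 between the mutants. The samples share only a number: the correlations of deviations of same-numbered samples were between -0.24 and 0.18. Over all tested genes the block gave 595, 209 and 2 calls in the 3 comparisons, against 1343, 468 and 25. No filter gave 831, 312 and 6, the fit of only the genotypes compared 807, 260 and 45, array weights 1764, 1240 and 283, and the posterior lobe covariate 434, 132 and 23. Between the mutants no trend gave 8, a mean of at least 50 gave 17 and quantile normalization 15.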
